A study of Mus musculus with 6 samples.

Results

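The transcripts of 10 genes of the insulin-like growth factor (IGF) axis were followed through 6 bulk RNA-seq libraries of the mouse prostate. They were chosen by name as the ligands Igf1 and Igf2, the receptors Igf1r and Igf2r and the binding proteins Igfbp2, Igfbp3, Igfbp4, Igfbp5, Igfbp6 and Igfbp7, and make up 10 of the 24908 genes in the deposited table, where they stand in capitals as IGF1, IGF2, IGF1R, IGF2R and IGFBP2 to IGFBP7. From 1 wild-type (WT) and 1 MYC mouse, the ventral (VP), dorsolateral (DLP) and anterior (AP) lobes were each sequenced as 1 library. Both mice were 12-week-old FVB males on a purified diet. The MYC mouse was heterozygous for Hi-MYC, a human c-MYC transgene that an androgen-responsive probasin promoter drives in the prostatic epithelium, and WT mice were littermates without it. Each lobe was dissociated to a suspension of single cells before RNA was taken, so that epithelial, stromal, vascular and blood cells all contribute. With 1 mouse per genotype, no error between animals could be computed, and the effect of genotype and that of the individual mouse cannot be told apart.

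IGF-I and IGF-II are small secreted proteins related to insulin. Both bind the IGF1 receptor, a tyrosine kinase that signals to growth and survival through IRS adaptors, PI3K and AKT, while the IGF2 receptor, which is also the cation-independent mannose 6-phosphate receptor, takes IGF-II into the cell for degradation. Binding proteins hold most IGF outside cells and limit or prolong its access to the receptor. In the prostate, stromal cells are a known source of IGF-I for the epithelium, and Igf2 is an imprinted gene with several promoters that is strongly expressed before birth and low in most adult tissues of the mouse.

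Start regions are printed here for Igf2, the member with the largest difference, and for the members that hold the E-box CACGTG, the preferred site of the transcription factor by which the genotypes differ. All 10 members had a RefSeq start window on GRCm38.p6, the assembly that the mm10 build of the files names, of 250 bases before to 50 bases after the annotated start, 14 windows in all. Igf2 has 4 of them on the minus strand of chromosome 7 and Igfbp2 has 2 on the plus strand of chromosome 1. The Igf2 windows at chr7:142666767-142667066 and chr7:142661222-142661521 held none of the motifs searched. The next 2 Igf2 windows, at chr7:142658755-142659054 and chr7:142657447-142657746, are shown 5′ to 3′ with the GC box GGGCGG, a site known for SP1, in capitals on either strand, since Igf2 had the largest differences of the family:
Igf2 window 3: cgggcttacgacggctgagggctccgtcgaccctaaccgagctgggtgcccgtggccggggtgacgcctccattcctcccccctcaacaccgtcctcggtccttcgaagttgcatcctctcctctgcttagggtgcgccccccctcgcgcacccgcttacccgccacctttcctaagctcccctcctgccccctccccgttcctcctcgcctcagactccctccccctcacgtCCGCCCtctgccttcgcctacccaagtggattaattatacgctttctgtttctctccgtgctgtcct
Igf2 window 4: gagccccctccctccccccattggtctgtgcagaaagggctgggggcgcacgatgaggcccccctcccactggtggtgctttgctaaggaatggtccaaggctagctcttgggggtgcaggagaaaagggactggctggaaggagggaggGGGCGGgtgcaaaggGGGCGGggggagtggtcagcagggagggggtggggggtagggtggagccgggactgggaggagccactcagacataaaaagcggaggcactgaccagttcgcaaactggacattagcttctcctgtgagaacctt

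The E-box was found in the windows of 2 of the 10 members, Igf2r and Igfbp2. Both are printed with the E-box in capitals, Igf2r from the minus strand at chr17:12769657-12769956, where it lies 48 and 7 bases before the start, and Igfbp2 from the plus strand at chr1:72824230-72824529, where it lies 142 bases before the start:
Igf2r: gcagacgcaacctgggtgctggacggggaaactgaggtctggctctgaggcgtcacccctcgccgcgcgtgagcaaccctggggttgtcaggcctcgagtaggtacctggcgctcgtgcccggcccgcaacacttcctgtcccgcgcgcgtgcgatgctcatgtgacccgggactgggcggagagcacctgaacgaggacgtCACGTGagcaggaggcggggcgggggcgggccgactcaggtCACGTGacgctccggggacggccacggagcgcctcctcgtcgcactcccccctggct
Igfbp2 window 1: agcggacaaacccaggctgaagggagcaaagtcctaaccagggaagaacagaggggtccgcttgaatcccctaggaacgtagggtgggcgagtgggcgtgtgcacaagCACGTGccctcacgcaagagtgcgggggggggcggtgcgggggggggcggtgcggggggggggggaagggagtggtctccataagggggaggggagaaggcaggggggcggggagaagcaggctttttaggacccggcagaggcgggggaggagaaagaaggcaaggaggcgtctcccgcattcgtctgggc

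The letters CACGTG occur in 7.15% of the 32851 RefSeq mouse windows of 300 bases, both strands searched. It is in 2 of the 14 windows of the members. GGGCGG occurs in 35.7% of all windows and in 6 of the 14, which belong to 5 members. TATAAA occurs in 13.6% of all windows and in 2 of the 14, those of Igfbp4 and Igfbp6. These matches describe the printed letters and not binding, and a window without a match says only that these letters are not in it.

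Values are FPKM as deposited (fragments per transcript kilobase relative to mapped reads), which are per length, so that genes can be compared within a library. Between libraries a comparison also rests on the scaling. The steps between low FPKM values put the depth between 25.4 M mapped reads in WT AP and 49.8 M in WT VP. The FPKM of a library summed to between 374085 and 483143. The Myc row was similar in the 3 WT libraries, at 201 to 230 FPKM, and was 586 in MYC DLP and 1696 in MYC VP. In the library labelled MYC AP it was 231 against 230 in WT AP, so that the Myc row does not set this library apart, while Gh, listed at 0 in all WT libraries, was at 4.69 FPKM in it. A list of 6 luminal keratin and other epithelial genes summed to between 1601 and 4195 FPKM by library. This sum does not tell prostate luminal cells from other epithelium. A list of 8 seminal vesicle genes summed to 524 FPKM in MYC AP and 11.3 in MYC DLP, and to at most 0.186 in the other 4 libraries.

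Igf2, the fetal growth ligand, showed the largest difference between genotypes of any member. Igf2 (chr7:142650768-142666816, minus strand, GRCm38.p6) was at 2.36 FPKM in WT AP, 4.20 in WT DLP and 0.831 in WT VP. In the MYC mouse it was at 4.06 FPKM in AP, 290 in DLP and 38.8 in VP. The MYC DLP and MYC VP libraries stood far above the other 4, which lay within 0.831 and 4.20 FPKM, and the highest level was 349 times the lowest. Ranked by FPKM among all rows of its library, Igf2 held place 8580 in WT DLP and 223 in MYC DLP. In the VP libraries it held place 11773 (WT) and 1476 (MYC). The ratio of MYC to WT was 69.1 in DLP, with an approximate 95% interval of 63.2 to 75.7 from counting error alone, and 46.8 in VP (38.4 to 57.3). The log2 ratio of FPKM + 1, the measure used from here on, was 5.81 in DLP and 4.44 in VP. Among the 12361 genes whose mean reached 1 FPKM, it ranked 15 from the top in DLP and 19 in VP. In AP the log2 ratio was 0.59, which is less than 2-fold and ranked 900. The added 1 FPKM makes these log2 ratios smaller than those of the plain values, most in VP, where the WT level was below 1 FPKM. In these bulk samples more cells of a type and more RNA per cell cannot be told apart.

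Igf1, the ligand induced by growth hormone in liver and made locally by mesenchyme, differed in sign between the lobes. Igf1 (chr10:87858265-87937047) was at 11.6 FPKM in WT AP, 11.0 in WT DLP and 5.88 in WT VP. The MYC libraries had 23.7 FPKM in AP, 6.99 in DLP and 1.69 in VP. MYC AP was thus the highest of the 6 libraries and MYC VP the lowest. In VP Igf1 was 3.48-fold lower in MYC (counting interval 2.92 to 4.14), with a log2 ratio of -1.35. The DLP value of -0.58 did not reach 2-fold. In AP the plain ratio was 2.05 (1.88 to 2.23), while the log2 ratio of 0.98 fell just short of the 2-fold threshold.

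Igf2 thereby replaced Igf1 as the more abundant ligand transcript in MYC DLP and MYC VP. Its share of the summed FPKM of the ligands was 16.9% in WT AP, 27.7% in WT DLP, 12.4% in WT VP and 14.6% in MYC AP, against 97.6% in MYC DLP and 95.8% in MYC VP. Igf1 exceeded Igf2 by 4.90 times in WT AP, 2.61 times in WT DLP, 7.08 times in WT VP and 5.83 times in MYC AP. Igf2 exceeded Igf1 by 41.5 times in MYC DLP and 23.0 times in MYC VP. The ligand sum was 13.9, 15.2 and 6.71 FPKM in WT AP, DLP and VP and 27.8, 297 and 40.5 FPKM in the same lobes of the MYC mouse.

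**Figure D1:**
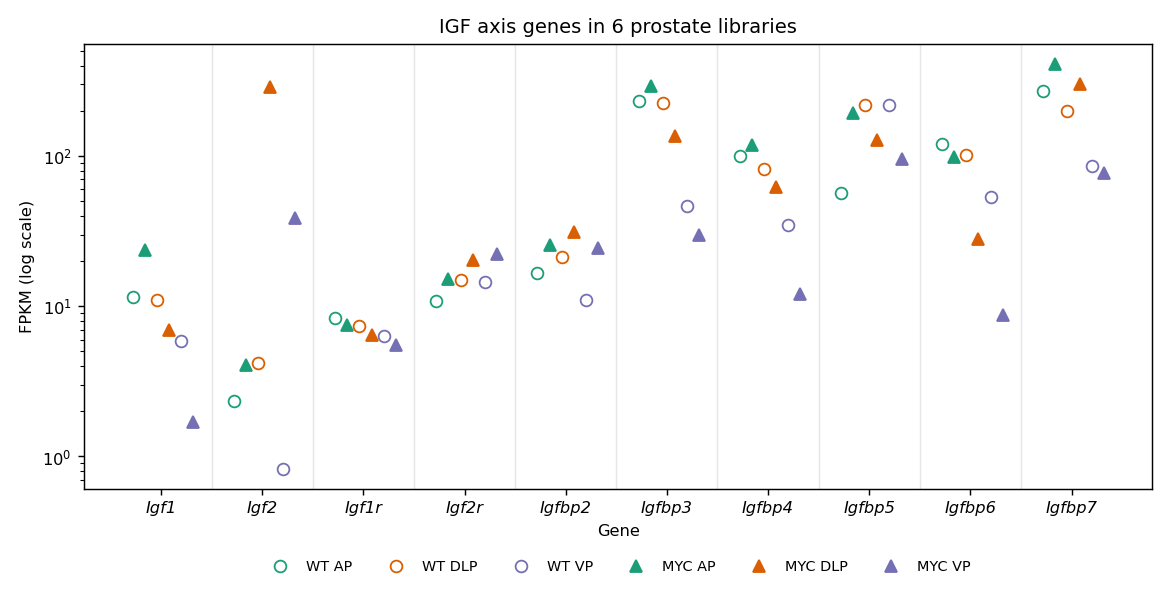
FPKM (log scale) of each of the 10 IGF axis genes in the 6 libraries, with circles for WT, triangles for MYC and 1 colour for each lobe, each symbol being 1 library with no error bar. Igf2 in MYC DLP (290 FPKM) and MYC VP (38.8 FPKM) stands apart from its other 4 values, while the 6 values of Igf1r lie between 5.55 and 8.31 FPKM.

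The receptors differed little by comparison. Igf1r, the signalling receptor (chr7:67952257-68233668), was at 8.31, 7.34 and 6.37 FPKM in WT AP, DLP and VP and at 7.53, 6.41 and 5.55 FPKM in MYC AP, DLP and VP. As deposited it had the narrowest range of the members, with a highest level 1.5 times the lowest, and ran in the order AP, DLP, VP in both mice. Scaled to equal sums its range was 1.93 and that of Igf2r 1.58, and with medians of ratios WT DLP (7.01) and WT VP (7.07) changed places. MYC was the lower genotype in every lobe, with log2 ratios of -0.13, -0.17 and -0.17 that were well within 2-fold.

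Igf2r, the receptor that clears IGF-II (chr17:12682406-12769706), was at 10.9, 14.9 and 14.6 FPKM in WT AP, DLP and VP and at 15.2, 20.2 and 22.2 FPKM in the MYC lobes in the same order. As deposited every MYC library exceeded every WT library, but with medians of ratios WT VP (16.2) lay above MYC AP (14.4). Within the lobes MYC was the higher genotype, with log2 ratios in AP, DLP and VP of 0.45, 0.41 and 0.57, all below 2-fold. The WT values of DLP and VP were not distinguishable by counting error, at a ratio of VP to DLP of 0.978 (0.920 to 1.04). The ratio of Igf2r to Igf1r was 1.31, 2.03 and 2.29 in WT AP, DLP and VP and 2.02, 3.15 and 4.00 in MYC. The insulin receptor Insr, which binds IGF-II in its A isoform, was at 0.995 to 1.45 times the level of Igf1r in the 6 libraries.

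**Figure D2:**
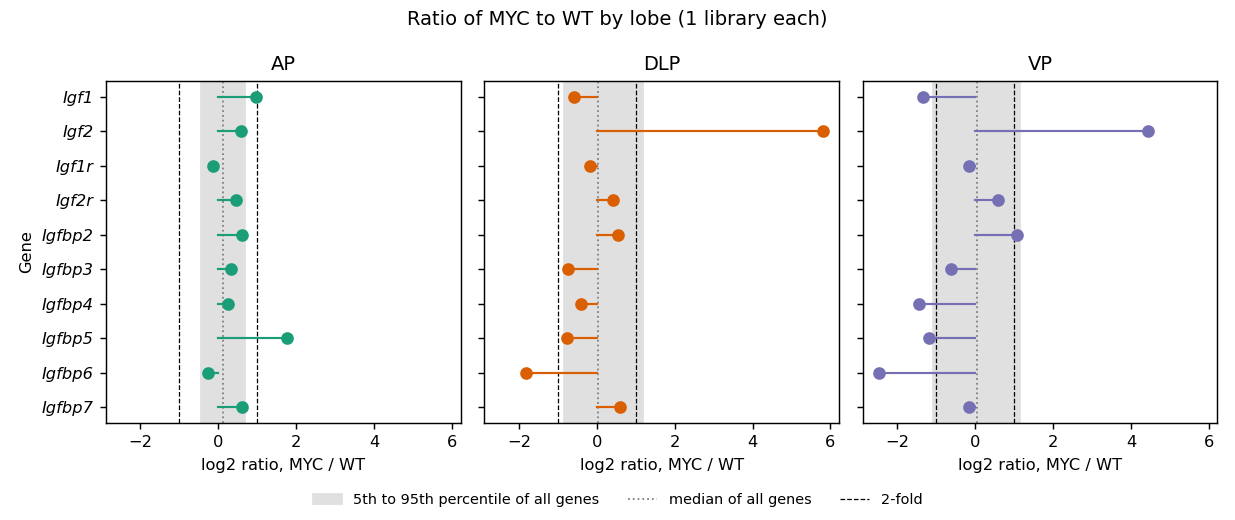
Log2 ratio of MYC to WT (FPKM + 1) for each member in AP, DLP and VP, 1 library on each side, with the 5th to 95th percentile of the 12361 genes compared in grey, their median dotted and the 2-fold threshold dashed. Igf2 lies far to the right in DLP (5.81) and VP (4.44), Igfbp5 lies to the right in AP (1.76) and to the left in VP (-1.20), and Igfbp6 lies farthest to the left in DLP (-1.81) and VP (-2.47).

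Among the binding proteins Igfbp6 was the member with the largest decrease. Igfbp6, which prefers IGF-II over IGF-I (chr15:102144186-102149512), was at 120 FPKM in WT AP, 101 in WT DLP and 53.0 in WT VP. In MYC it was at 99.2 FPKM in AP, 28.1 in DLP and 8.74 in VP. Both genotypes followed the order AP, DLP, VP, with wider gaps in MYC. MYC was 3.60-fold lower in DLP (3.35 to 3.88) and 6.07-fold lower in VP (5.41 to 6.84), with log2 ratios of -1.81 and -2.47. These ranked 101 and 65 from the bottom of all genes compared. The AP log2 ratio was -0.27. The 2 lobes in which Igfbp6 was at least 2-fold lower were those in which Igf2 was at least 2-fold higher, and in AP each kept its sign without reaching that threshold.

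Igfbp5, which binds extracellular matrix as well as IGF (chr1:72858065-72874865), took opposite directions in AP and VP. It was at 56.5 FPKM in WT AP, 217 in WT DLP and 219 in WT VP. The MYC libraries had 194 FPKM in AP, 128 in DLP and 95.1 in VP. WT AP was the lowest of the 6, and the other WT lobes were the highest. In AP MYC was 3.43-fold higher (3.35 to 3.51), a log2 ratio of 1.76 that ranked 83 from the top. In VP it was 2.31-fold lower (2.27 to 2.34), a log2 ratio of -1.20. The DLP log2 ratio was -0.75. The order of the lobes was thus AP below DLP and VP in WT and AP above DLP and VP in MYC. The WT values of DLP and VP were not distinguishable by counting error (ratio 1.01, 0.998 to 1.02). The stromal lists differed in sign between the lobes as well, with median log2 ratios of 0.60 in AP and -1.43 in VP for 10 fibroblast genes and of 0.60 and -0.81 for 10 smooth muscle genes. In DLP the fibroblast median was 0.20, opposite in sign to Igfbp5, and the smooth muscle median was -0.81. Of the AP libraries, MYC AP held the seminal vesicle transcripts (524 FPKM). They were near 0 in both VP libraries and in WT AP (0.112 FPKM), the library with the lowest Igfbp5. The part of these cells in the result was not tested.

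Igfbp3, the main carrier of IGF in serum (chr11:7206086-7215498), was among the highest members in AP and DLP. It was at 233, 227 and 46.2 FPKM in WT AP, DLP and VP and at 292, 136 and 29.8 FPKM in MYC. The VP libraries were lowest in both mice. None of the genotype log2 ratios, 0.32 in AP, -0.73 in DLP and -0.62 in VP, reached 2-fold.

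Igfbp4, an inhibitory binding protein that the PAPP-A proteases cleave (chr11:99040005-99052655), was at 99.9, 82.5 and 34.7 FPKM in the WT lobes and at 118, 62.1 and 12.1 FPKM in the MYC lobes, AP, DLP and VP in turn. It ran in the order AP, DLP, VP in both mice. MYC was 2.87-fold lower in VP (2.67 to 3.09), a log2 ratio of -1.45. The log2 ratios of 0.24 in AP and -0.40 in DLP were below 2-fold.

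Igfbp7, a low-affinity relative that is abundant in vessels (chr5:77349240-77408045), was the highest member in 3 of the 6 libraries, WT AP, MYC AP and MYC DLP. It was at 270, 199 and 86.0 FPKM in WT AP, DLP and VP and at 409, 302 and 77.2 FPKM in MYC. The 2 VP libraries were the lowest and differed by a log2 ratio of -0.15. The AP and DLP log2 ratios were both 0.60.

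Igfbp2, a binding protein of fetal and epithelial tissue that stands next to Igfbp5 with 5590 bases between the genes (chr1:72824480-72852474), was the least abundant binding protein in WT. It was at 16.5, 21.3 and 11.1 FPKM in WT AP, DLP and VP and at 25.7, 31.4 and 24.5 FPKM in MYC. All MYC values lay above all WT values, as deposited and with the 3 other ways of scaling. In AP and DLP its log2 ratios were 0.60 and 0.54. In VP it was 1.08, with MYC 2.21-fold higher (1.99 to 2.46). The VP call was close to the threshold, since it ranged from 0.85 to 1.08 over 4 ways of scaling the libraries. Its neighbour Igfbp5 shared the sign of Igfbp2 in AP (1.76) and had the opposite sign in DLP (-0.75) and VP (-1.20).

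The summed level of the binding proteins was lower in MYC than in WT in DLP and VP and higher in AP, where Igfbp5 alone of the 6 passed 2-fold. Their summed FPKM was 796 in WT AP, 848 in WT DLP and 450 in WT VP, and 1138, 688 and 247 in MYC AP, DLP and VP. The summed fibroblast markers differed in the same direction in each lobe, at 1325, 1436 and 768 FPKM in WT and 1557, 813 and 288 in MYC. In DLP most of the fibroblast sum is Dcn (1155 FPKM in WT, 454 in MYC), and the median log2 ratio of the list was 0.20. The part of these cells in the sums of the binding proteins was not tested. Igfbp5 supplied 48.7% of the sum in WT VP and 38.4% in MYC VP, but 7.09% in WT AP. Igfbp7 supplied the largest share in WT AP (33.9%), MYC AP (35.9%) and MYC DLP (43.9%), while Igfbp3 was largest in WT DLP (26.7%). The share of Igfbp6 went from 11.9% to 4.08% in DLP and from 11.8% to 3.53% in VP between WT and MYC. The share of Igfbp2 went from 2.51% to 4.57% and from 2.46% to 9.92% in the same lobes. Set against the ligand sum, binding protein transcripts exceeded ligand transcripts 57.2, 56.0 and 67.1 times in WT AP, DLP and VP and 41.0, 2.32 and 6.10 times in MYC AP, DLP and VP. These are ratios of transcript levels and say nothing of protein amounts.

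**Figure D3:**
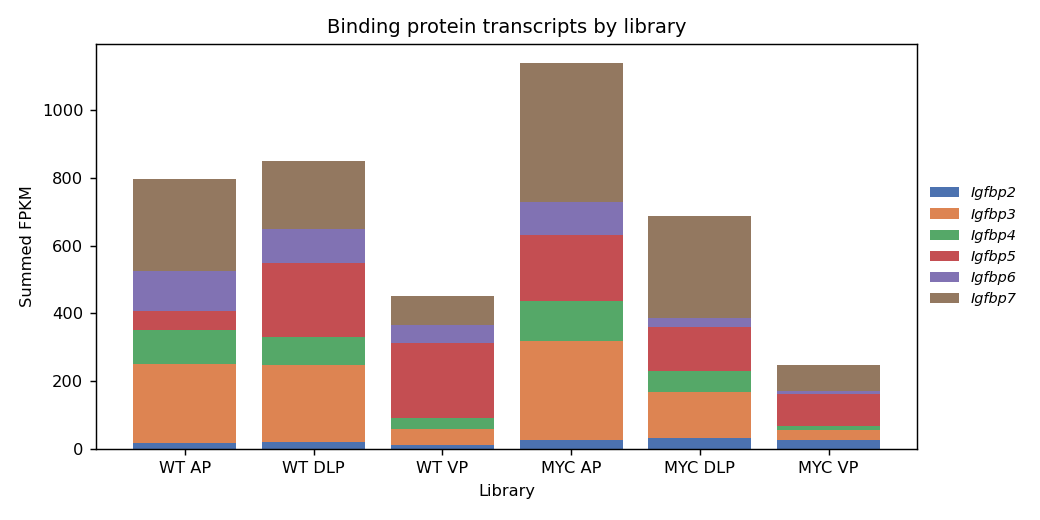
Summed FPKM of the 6 binding protein genes in each library, stacked by gene, with bars that start at 0 and no error bars as each is 1 library. The sum runs from 247 FPKM in MYC VP to 1138 FPKM in MYC AP, and Igfbp5 takes the largest part of both VP bars.

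Counted over the family, the members departed most in VP. All 10 had a mean of at least 1 FPKM and entered the comparison with the other genes. In AP 1 of 10 members was at least 2-fold different, Igfbp5 with a higher value, against 2.65% of all genes in either direction and 2.05% in the higher one. In DLP 2 members were, Igf2 with a higher and Igfbp6 with a lower value, against 9.85% of all genes (6.46% higher, 3.39% lower). In VP 6 members were, against 12.8% of all genes. Igf2 and Igfbp2 had higher values there (6.88% of all genes), and Igf1, Igfbp4, Igfbp5 and Igfbp6 had lower ones (5.95%). In AP, DLP and VP the median log2 ratio of the members was 0.52, -0.29 and -0.39, beside 0.13, 0.03 and 0.04 for all genes compared. For the 6 binding proteins alone it was 0.46, -0.57 and -0.91. Igf2, Igf2r and Igfbp2 had log2 ratios above 0 in all 3 lobes, Igf1r and Igfbp6 below 0 in all 3, and the other 5 members in both directions. Each of these 30 signs was the same under the 4 ways of scaling.

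Between lobes of the WT mouse, VP was the lobe that stood apart. VP was at least 2-fold below AP for 4 members, Igfbp3, Igfbp4, Igfbp6 and Igfbp7, and above it for 1, Igfbp5, where 10.3% and 7.89% of all genes were (18.2% in either direction). Igfbp3 showed the largest of these differences, 5.05-fold, with a log2 ratio of -2.31. VP was below DLP for 4 members, Igf2, Igfbp3, Igfbp4 and Igfbp7, and above it for none, against 6.29% and 2.63% of all genes (8.92% in either direction). DLP differed from AP in 1 member alone, Igfbp5, which was 3.85-fold higher (3.85% of all genes higher, 1.31% lower, 5.16% in either direction). These contrasts share libraries and are not independent of each other. Cell type markers differed between the WT lobes too. In AP, DLP and VP the 8 basal genes summed to 2414, 1634 and 771 FPKM, the 6 luminal genes to 2012, 1895 and 4195 FPKM and the 10 fibroblast genes to 1325, 1436 and 768 FPKM, and their part in the lobe differences was not tested.

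In the MYC mouse more members, and more of all genes, passed 2-fold between VP and the other lobes than in WT. The gap did not widen for every member, as the log2 ratio of VP to AP went from -0.54 in WT to -0.06 in MYC for Igfbp2 and from 1.94 to -1.02 for Igfbp5. VP was at least 2-fold below AP for 6 members, Igf1 and Igfbp3 to Igfbp7, and above it for Igf2, beside 16.1% of all genes lower, 8.98% higher and 25.1% in either direction. Igf1 was 14.0-fold lower in VP than in AP, Igfbp6 was 11.4-fold lower, Igfbp3 was 9.81-fold lower and Igfbp4 was 9.82-fold lower. VP was below DLP for 6 members, Igf1, Igf2, Igfbp3, Igfbp4, Igfbp6 and Igfbp7, and above it for none, beside 14% of all genes lower, 3.54% higher and 17.6% in either direction. DLP was below AP for 3 members, Igf1, Igfbp3 and Igfbp6, and above it for 1, Igf2, beside 3.49% lower, 4.54% higher and 8.03% in either direction. Igf2 was 71.4 times as high in DLP as in AP and 9.56 times as high in VP as in AP. Here too the contrasts share libraries. The fibroblast list, at 1557, 813 and 288 FPKM in MYC AP, DLP and VP, ran in that order, as did Igf1, Igf1r and Igfbp3 to Igfbp7. So did the endothelial (311, 250 and 49.4 FPKM), smooth muscle (528, 363 and 298 FPKM) and pericyte lists (32.8, 18.0 and 6.53 FPKM). The seminal vesicle list did too, at 524, 11.3 and 0 FPKM, so that contrasts with MYC AP also hold these transcripts. The luminal list ran the other way, at 1601, 2117.5 and 3572 FPKM. The basal list, at 1313, 2171 and 514 FPKM, was highest in DLP and lowest in VP. The part of these cells in the lobe differences was not tested.

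Stromal markers moved with several of the members. The summed FPKM of 10 fibroblast genes was 1325, 1436 and 768 in WT AP, DLP and VP and 1557, 813 and 288 in MYC. In VP 6 of these 10 genes were at least 2-fold lower and 1, Col6a3, was higher, with a median log2 ratio of -1.43. In DLP 3 were lower and 2 higher with a median of 0.20, so that the median and the sum, most of which is Dcn, differ in sign there. In AP 4 were higher with a median of 0.60. The 10 smooth muscle genes summed to 391, 612 and 505 FPKM in WT and 528, 363 and 298 FPKM in MYC, with medians of 0.60, -0.81 and -0.81 in AP, DLP and VP. Igf1, Igfbp4 and Igfbp6 were lowest in MYC VP, as were Igf1r, Igfbp3, Igfbp7 and the fibroblast list. The smooth muscle (298 FPKM), pericyte (6.53 FPKM), basal (514 FPKM) and luminal progenitor (294 FPKM) lists were lowest there too, so that the fibroblast list is not singled out. When the fibroblast median was subtracted in VP, the log2 ratio of Igf1 became 0.07, that of Igfbp4 -0.02, that of Igfbp5 0.23 and that of Igfbp6 -1.04. The subtraction shifts every gene of a lobe alike, and the median of all genes in VP became 1.47 on that scale, so that these 4 values all lay below it. In DLP fibroblast genes themselves differed, with log2 ratios of -1.35 for Dcn and -1.81 for Dpt beside 2.03 for Col3a1, and that of Igfbp6 was -1.81. The part of stromal content in the members' levels was not tested.

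Igf2 did not follow the fibroblast list. Its log2 ratios of 5.81 in DLP and 4.44 in VP stood beside fibroblast medians of 0.20 and -1.43. Blood cell markers moved in its direction, as 10 of 10 hematopoietic genes were at least 2-fold higher in DLP (median 1.78) and 8 of 10 in VP (median 1.24), with sums of 169, 68.6 and 43.9 FPKM in WT and 151, 369 and 251 FPKM in MYC. Of 3 mesothelial genes, Msln was at 0.496 FPKM in WT DLP and 23.5 in MYC DLP, whereas Upk3b and Lrrn4 were at 0 and 0.0264 FPKM in MYC DLP. The 10 endothelial genes summed to 285, 198 and 41.3 FPKM in WT and 311, 250 and 49.4 FPKM in MYC, so that VP was low in both as it was for Igfbp7. Adipocyte genes summed to at most 0.0766 FPKM in each of the 6 libraries. The part of blood, mesothelial or endothelial cells in the members' levels was not tested.

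**Figure D4:**
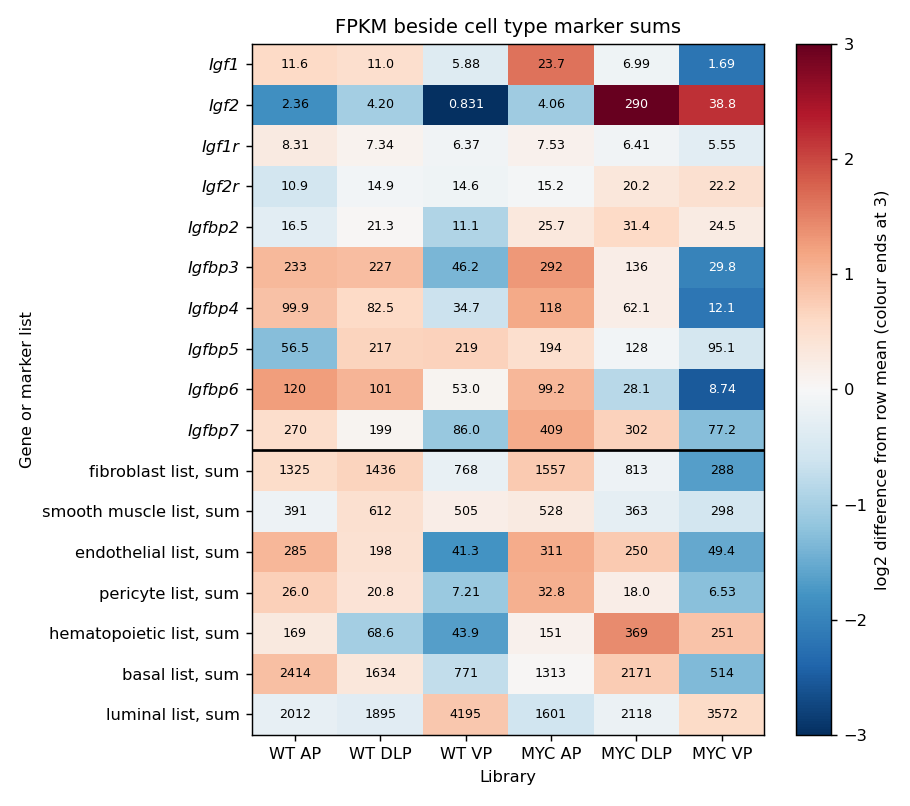
FPKM of the 10 members (upper rows) and summed FPKM of 7 cell type marker lists (lower rows) in the 6 libraries, with each cell coloured by its log2 difference from the row mean and the value printed. Igf1, Igf1r, Igfbp3, Igfbp4, Igfbp6 and Igfbp7 are lowest in MYC VP. The fibroblast (288 FPKM), smooth muscle (298 FPKM), pericyte (6.53 FPKM) and basal (514 FPKM) lists are lowest there too. Igf2 is highest in MYC DLP and MYC VP, where the hematopoietic list is at 369 and 251 FPKM.

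The genes around Igf2 did not show a difference of its size. The region of 250 kb to either side was chosen after the Igf2 values were seen. It holds 13 other genes of the table, of which 4, Syt8, Tnni2, Lsp1 and Mrpl23, had a mean of at least 1 FPKM. Syt8 was at least 2-fold higher in MYC AP and MYC DLP (log2 ratio 1.12 in each) and Lsp1 was lower in MYC VP (-1.18). H19, the reciprocally imprinted RNA next to Igf2, was at 0.245, 0.0305 and 0.164 FPKM in WT AP, DLP and VP and 0.0862, 0.290 and 0.175 FPKM in MYC. Those values are all below 1 FPKM and do not follow Igf2 in VP. Igf2os, an antisense transcript that overlaps Igf2, was at 0.345 FPKM in MYC DLP and at most 0.0424 in the other 5 libraries. Whether the counting used strand is not given in the sources used here, so reads of Igf2 and Igf2os may not be fully separated. Ins2, the next gene, and the intronic miRNA gene Mir483 were listed at 0 in all 6 libraries, and a listing of 0 for a miRNA gene in mRNA libraries is not a measure of the mature miRNA.

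Other genes of the pathway were mostly within 2-fold. A list of 46 genes comprised carriers and hormones, insulin receptors, adaptors, the PI3K and AKT branch, the proteases of binding proteins with their inhibitors, and genes of the Igf2 locus or its RNA binding. Of these 37 had a mean of at least 1 FPKM. The 2-fold threshold was passed upwards by 1 gene in AP, 2 in DLP and 2 in VP, and downwards by none in AP, 2 in DLP and 4 in VP. One of those passing upwards in each lobe was Gh, a row that may not measure growth hormone, and without it 0, 1 and 1 of 36 genes passed upwards. Of all genes 2.65%, 9.85% and 12.8% passed it in either direction, so that the share of the list was close to the background. The median log2 ratios were 0.19, 0.06 and -0.02. All 18 genes of the PI3K and AKT branch were compared and 1 of them passed the threshold in any lobe, Pik3cb, a catalytic subunit of PI3K, at 5.01 FPKM in the VP of WT and 11.1 in that of MYC (log2 ratio 1.01). Igfbp1 and Igfbpl1, the binding protein genes outside the member list, were listed at 0 in all 6 libraries.

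Beside the Gh row and Pik3cb, which was higher in MYC VP, the other genes past 2-fold were a hormone receptor, a serum carrier, adaptors and a protease. Ghr, the growth hormone receptor, was at 11.7, 17.3 and 13.7 FPKM in WT AP, DLP and VP and 12.0, 7.65 and 4.69 FPKM in MYC, with log2 ratios of -1.08 in DLP and -1.36 in VP. Irs2, an adaptor of the IGF1 and insulin receptors, was at 19.9 FPKM in the VP of WT and 6.54 in that of MYC (-1.47). Grb10, an adaptor that restrains the same receptors, was at 3.29 and 1.07 FPKM there (-1.05). Pappa2, a protease that cleaves binding proteins, was at 4.47 FPKM in WT DLP and 1.45 in MYC DLP (-1.16) and at 2.14 and 0.502 FPKM in VP (-1.07). These 4 genes were lower in MYC VP than in WT VP, as were Igf1 and the sums of the fibroblast, smooth muscle and basal lists. Igfals, which encodes the acid-labile subunit of the serum IGF complex, was at 0.167 FPKM in WT DLP and 5.31 in MYC DLP (2.44) and below 1 FPKM in the other 5 libraries. Its mean of 1.07 FPKM passed the filter of 1 FPKM only through MYC DLP, the library in which Igf2 was highest. The shared library is therefore a description and no support for a link.

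Gh, the growth hormone gene, was listed at 0 in the 3 WT libraries and at 4.69, 19.8 and 57.2 FPKM in MYC AP, DLP and VP. Growth hormone is made in the pituitary, and the order of the MYC libraries is that of the Myc row, at 231, 586 and 1696 FPKM. Whether reads of the transgene are counted in the Gh row was not tested, and no growth hormone expression in the prostate is read from it.

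**Figure D5:**
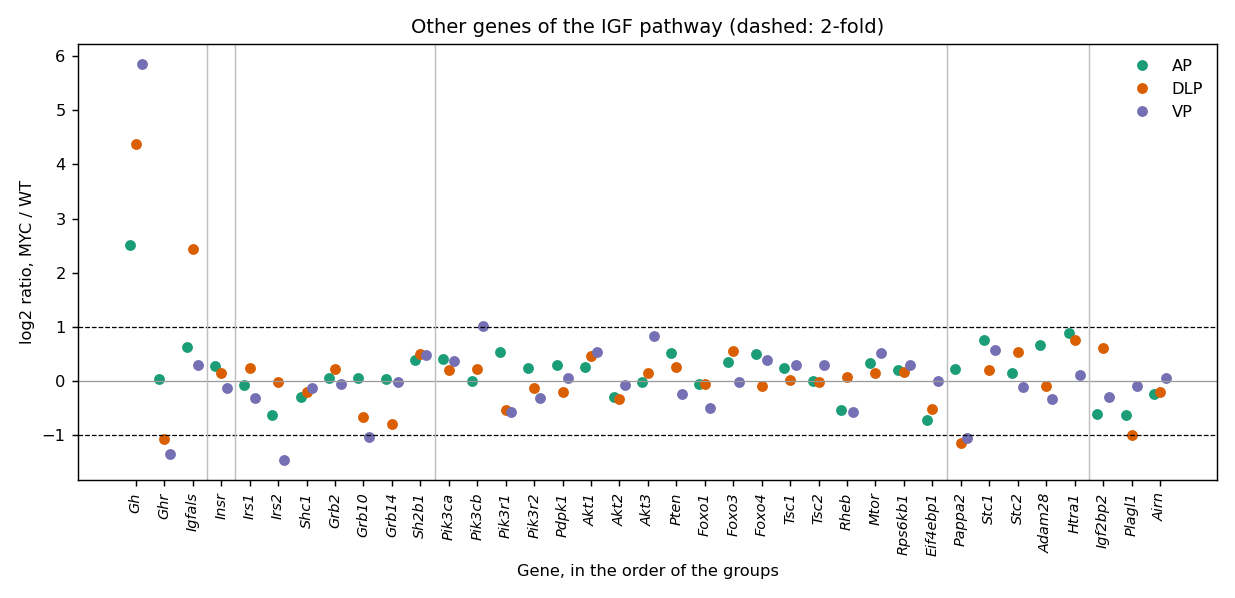
Log2 ratio of MYC to WT (FPKM + 1) of the pathway genes that averaged 1 FPKM or more, in the order of their groups (separated by grey lines), with 1 point for each lobe and the 2-fold threshold dashed. Of the 37 genes 7 pass 2-fold in any lobe, Gh with 5.86 in VP and Igfals with 2.44 in DLP being the highest, and Irs2 (-1.47) and Ghr (-1.36) in VP the lowest.

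The members' profiles over the 6 libraries were set beside those of all genes compared, by the root mean square distance of centred log2(FPKM + 1) values. The 6 points share their animals and lobes, so that the nearest genes are a description. Nearest to Igf1 was Rcn3 at a distance of 0.10, followed by Nid1 and Col6a1. Igfbp6 lay nearest to Tnxb (0.10), Clec3b and Aspn, and Igfbp3 to Cxcl12 (0.12), Aqp1 and Dkk3. Igfbp4 had C130074G19Rik (0.15), Serpinh1 and Serpinb1a nearest. Igfbp7 lay nearest to Ugt1a6b (0.10), Ptk7 and Tmcc2, Igfbp2 to Snrpg (0.10), Acot5 and Cdc45, Igf2r to Ttf2 (0.02), Zfp282 and Erh, and Igf1r to Smarca5 (0.03), Agap1 and Atf7.

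Igf2 and Igfbp5 had the largest distances to their nearest genes. The nearest profile to Igfbp5 was that of Ppp1r1b at 0.26, then Tmsb15l and Pon3. The nearest to Igf2 was Defb28, a beta-defensin gene, at 0.61. Defb28 was at 204 FPKM in MYC DLP, 19.7 in MYC VP, 1.47 in MYC AP and at most 0.206 in WT. Next were Rps27rt (0.75), a near copy of Rps27 whose read split is uncertain, and Defb29 (0.89), at 79.6 FPKM in MYC DLP, 54.0 in MYC VP and at most 0.704 elsewhere. These 3 genes were picked as nearest to Igf2, so that their high values in MYC DLP and MYC VP restate that choice. Rps27rt was at 93.7 FPKM in MYC DLP but at 6.29 in MYC VP, beside 3.20 in WT DLP. Across the 6 libraries Igf1 had a Pearson correlation of 0.96 with Igfbp4, 0.92 with Igfbp3 and 0.89 with Igfbp6, and -0.40 with Igf2, given as a description of 6 libraries from 2 mice.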

How the data were processed

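Stranded poly(A) libraries of 3 prostate lobes of 1 WT and 1 MYC mouse were sequenced single-end by the authors, mapped with STAR and quantified with Cufflinks, with mm10 as the genome build and bcl2fastq 2.18 for demultiplexing per the submitters' processing notes. The study's methods speak of read counts and name DESeq2 for the authors' differential expression, but the deposited values are FPKM, neither whole numbers nor equal in sum, so no count model was run here. The annotation used for counting is not given in the sources used here.

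Log2 ratios were computed from FPKM + 1 for the 12361 of 24908 genes whose 6 values averaged 1 FPKM or more, and a gene was called at 2-fold or more. No p-value was computed, as each group holds 1 library. Depth was recovered from the steps in FPKM under 0.3 of genes with 1 exon and 1 transcript of over 600 bases. By library, 46.8% to 54.5% of these values came within 0.03 of whole reads (6% by chance). Reads per member were then estimated from the mean GENCODE coding transcript length less 200 bases, and exact 95% (Clopper-Pearson) intervals of ratios cover counting error only. For Igf2r, short annotated transcripts make the estimate rough.

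All 10 members were named, and of the pathway list the genes past 2-fold in any lobe, at most 12. For likeness the 3 nearest genes were named. Members and lists were chosen with earlier results of these data known. Coordinates and windows are from RefSeq on GRCm38.p6, matched by symbol. Protein sequences were not used here.

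The processing was varied by scaling to medians of ratios, equal sums or equal upper quartiles, and by a pseudocount of 0.1, no filter, a minimum mean of 10 FPKM, 1.5-fold and 4-fold thresholds, and subtraction of the fibroblast median. Tested on simulated libraries, 200 of 200 genes changed 4-fold were recovered in each lobe, and at most 2 of 12161 unchanged genes were called. The changed genes were drawn from those with a WT level well above 1 FPKM, and the call was made at 2-fold. Full recovery was thus close to certain beforehand. It says nothing of changes near 2-fold or of genes as low as Igf2 in WT. The simulation covers counting error only and holds no difference between animals. Computations ran in Python 3.11.15 (matplotlib 3.10.9, scipy 1.17.1, pandas 2.3.3, numpy 2.4.6).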

Additional observations from a re-analysis of the deposited data

Results flagged for a closer look

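Igfbp5 differed in direction between AP and VP. Its log2 ratio of MYC to WT was 1.76 in AP and -1.20 in VP, a difference of -2.96 for VP less AP. With 1 library for each lobe and genotype the difference between the lobes was not tested. The median log2 ratios of the fibroblast list (0.60 in AP, -1.43 in VP) and of the smooth muscle list (0.60 and -0.81) had the same signs as Igfbp5 in these lobes. In DLP the smooth muscle median (-0.81) had the sign of Igfbp5 (-0.75), and the fibroblast median (0.20) had the opposite one. Seminal vesicle transcripts, at 524 FPKM in MYC AP and 0.112 in WT AP, bear on AP only, as in VP they summed to 0.0192 FPKM for WT and 0 for MYC. The part of these cells was not tested.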

How the results depend on the processing

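Of the 9 pairs of a member and a lobe called at 2-fold between MYC and WT, 9 were still called with equal upper quartiles and with a pseudocount of 0.1, which added Igf1 in AP, and 8 with medians of ratios and with equal sums, both without Igfbp2 in VP. Subtracting the fibroblast median left 6, added 3, and put the called Igf1 (0.0747) and Igfbp5 (0.2312) in VP above 0. Of the values not called it put Igf1r, Igfbp3 and Igfbp7 in VP above 0 and Igf2, Igf2r, Igfbp3, Igfbp4 and Igfbp7 in AP below 0. It shifts all genes of a lobe alike: in VP 9827 genes then passed 2-fold upwards and 70 downwards, with a median of 1.47, and in AP the median was -0.48. Members called between MYC and WT became 2 in AP with a pseudocount of 0.1. At 1.5-fold they were 5 in AP and 5 in DLP, and at 4-fold 0 in AP, 1 in DLP and 2 in VP. In WT, DLP against AP gave 2 at 1.5-fold and 0 at 4-fold, VP against AP 1 at 4-fold and 3 less the fibroblast median, and VP against DLP 7 at 1.5-fold, 1 at 4-fold and 1 less the fibroblast median. In MYC, 4-fold left 1 for DLP against AP and 3 for VP against DLP. The other 66 counts stayed within 1.5 times, but with the fibroblast median subtracted their directions did not, as 2 higher and 4 lower became 5 and 1 (MYC against WT, VP), 1 and 6 became 5 and 0 (VP against AP, MYC) and 0 and 6 became 4 and 0 (VP against DLP, MYC). Scaling also moved the background: over all genes, calls in VP went from 850 higher and 736 lower to 555 and 1088 with equal sums, where the median went from 0.04 to -0.15, and calls in AP from 254 and 74 to 200 and 134 with medians of ratios, where the median went from 0.13 to -0.00. Between lobes, the share of calls over all genes that were higher went with equal sums from 74.6% to 54.0% (DLP against AP, WT), from 56.5% to 37.0% (DLP against AP, MYC) and from 35.8% to 18.4% (VP against AP, MYC), and with medians of ratios from 29.5% to 48.2% (VP against DLP, WT) and from 20.2% to 31.0% (VP against DLP, MYC). The cause of these shifts was not tested. Leaving out the Gh row, chosen after seeing the data, took the pathway genes past 2-fold from 1 to 0 in AP, 4 to 3 in DLP and 6 to 5 in VP. Genotype could not be tested within mice, since each genotype is 1 mouse. A fit of lobe with the mouse as a block, pooled over genotypes, was not run. Counting error is widest for Igf2 in WT VP, at an estimated 103 reads.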
